A study of Mus musculus with 2 samples.

Results

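The piRNA pathway protects the germ line from transposable elements. PIWI proteins, a germ cell branch of the Argonaute family, carry small RNAs called piRNAs that pair with transposon transcripts and direct their cleavage or the methylation of the DNA that encodes them. In mice the pathway is best known from fetal and adult male germ cells, where its factors gather in cytoplasmic granules beside the mitochondria, and many of them carry Tudor domains, which bind methylated arginines on PIWI proteins. Primordial germ cells (PGCs) are the embryonic precursors of oocytes and sperm, and at embryonic day 9.5 they are still migrating.

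The set described here comprised 10 genes chosen by symbol: the PIWI protein gene Piwil2 and its cofactor gene Gtsf1, the biogenesis genes Mov10l1, Pld6 and Asz1, the Tudor genes Rnf17, Tdrd5, Tdrd7 and Tdrd9, and Mael. Of these, 9 had a row among the 18877 genes of the expression table, and the expression of Tdrd9 was not analysed here. The table held E9.5 PGCs of the C57BL6 strain, untreated and selected by an antibody to SSEA1, a surface carbohydrate of early germ cells, in 2 replicates that form the only group. The study describes its RNA-seq replicates as biological, and the number of embryos behind each library was not given in the sources used here. Since there was no second group, no test between conditions was possible, and every difference below is between libraries of the same kind of cell.

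Expression was given as TPM, a read count divided by gene length and scaled to the same fixed total in each library, so levels of different genes can be compared. Multiplying the TPM of each member by its exonic length in GENCODE M21 returned whole reads, and these are given as recovered reads. The depth was 15912470 recovered reads in replicate 1 and 5458687 in replicate 2, or 2.92 times less, so counting error was larger in replicate 2. The intervals below are exact 95% Poisson intervals of these reads and cover counting error only. All 10 PGC marker genes listed reached 1 TPM in each library, from 6.98 ± 1.22 TPM for Prdm1 to 5044 ± 44.1 TPM for Dppa3 (SD, n = 2). That limit was also reached by 60% of all genes, so the count alone does not establish PGC identity. Red cell transcripts were also abundant, with the embryonic globin gene Hba-x at 2198 ± 188 TPM, while summed markers of 5 other cell types lay between 1.27 and 19.4 TPM per library. The methods describe the embryos as female, but the Y-linked gene Ddx3y was at 7.32 TPM in replicate 1 and 5.35 TPM in replicate 2.

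E9.5 PGCs expressed most of the piRNA genes, with 50.1 times between the highest and the lowest mean. Rnf17, Asz1 and Gtsf1 were the highest at about the same level, Mael, Piwil2, Mov10l1 and Tdrd5 formed a middle group, and Pld6 and Tdrd7 were low. The level of 1 TPM was reached in each library by 8 of 9 genes, where 60% of all genes did so. In such bulk libraries fewer cells that express a gene and less RNA per cell cannot be told apart. On the log2(TPM + 1) scale the 9 genes had medians of 2.95 and 3.66 in replicates 1 and 2 (mean 3.31 ± 0.503, SD, n = 2), beside 1.89 and 1.85 for all genes. Both medians were the value of Piwil2, so their difference is that of 1 gene.

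**Figure D1:**
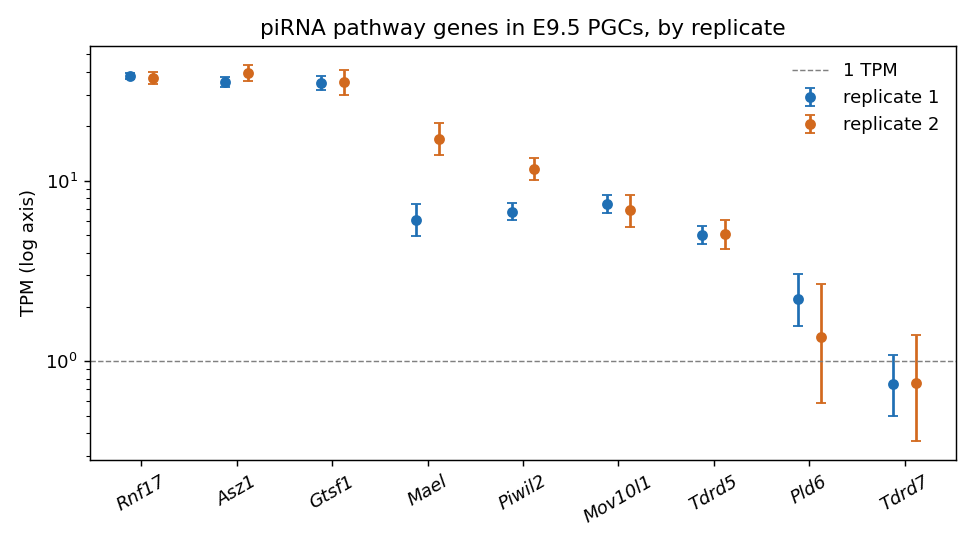
TPM (log axis) of the 9 piRNA pathway genes with a row in the table, in replicate 1 (blue) and replicate 2 (orange), ordered by mean; bars are exact 95% Poisson intervals of the recovered reads and the dashed line marks 1 TPM. Rnf17, Asz1 and Gtsf1 sit together between 34.8 and 39.6 TPM, and the bars of Mael and Piwil2 do not overlap between the libraries.

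The PIWI protein gene was expressed at a moderate level. Piwil2 (chromosome 14, 70372477 to 70429383, minus strand), which encodes MILI, the PIWI protein that cleaves transposon transcripts and feeds the amplification of piRNAs, was at 6.73 TPM in replicate 1 (338 reads, interval 6.03 to 7.48) and 11.7 TPM in replicate 2 (206 reads, 10.1 to 13.4). The mean was 9.19 ± 3.49 TPM (SD, n = 2), and replicate 2 was the higher library. The other PIWI genes were Piwil4, which encodes the nuclear PIWI protein MIWI2 and had 7 reads in replicate 1 (0.137 TPM) and 3 reads in replicate 2 (0.167 TPM), and Piwil1, which was not analysed here. Piwil2 thus lay above Piwil4 in each library, with intervals of Piwil4 that ended at 0.282 and 0.487 TPM.

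Gtsf1 was among the most abundant members. It encodes a small zinc finger protein that binds PIWI proteins and raises their cleavage activity. Gtsf1 (chromosome 15, 103402405 to 103430470, minus strand) was at 34.8 TPM in replicate 1 (460 reads) and 35.1 TPM in replicate 2 (163 reads), a mean of 34.9 ± 0.186 TPM (SD, n = 2). Both libraries gave nearly the same value, with replicate 2 higher by 0.01 on the log2(TPM + 1) scale (counting interval of the ratio 0.837 to 1.21). Its paralog Gtsf1l (chromosome 2, 163087034 to 163087855), a gene with 1 annotated transcript, was higher at 439 and 425 TPM, 12.6 and 12.1 times the level of Gtsf1. These ratios use 1390 exonic bases for Gtsf1, whose longest protein-coding transcript has 819, and 822 bases for Gtsf1l by either length. With transcript length they would be smaller.

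The 3 biogenesis genes differed widely from each other. Mov10l1 encodes an RNA helicase that binds piRNA precursors, and Pld6 and Asz1 encode proteins of the outer mitochondrial membrane: Pld6 is the nuclease that cuts precursors, and Asz1 is a scaffold with ankyrin repeats. Asz1 (chromosome 6, 18050964 to 18109061, minus strand) was at 35.1 TPM in replicate 1 (945 reads) and 39.6 TPM in replicate 2 (375 reads), a mean of 37.4 ± 3.19 TPM (SD, n = 2). Mov10l1 (chromosome 15, 88982909 to 89055152, plus strand) was at 7.47 TPM (297 reads) and 6.86 TPM (96 reads), a mean of 7.17 ± 0.427 TPM.

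With all exonic bases as gene length, Mov10l1 was near the level of its paralog Mov10, which was at 7.79 and 7.63 TPM. Mov10 acts outside the germ line as well. The ratio of Mov10l1 to Mov10 was 0.959 in replicate 1 and 0.900 in replicate 2. The longest protein-coding transcript has 3584 of 5607 exonic bases in Mov10 and 4133 of 4183 in Mov10l1. With transcript length the ratio would therefore be lower. Pld6 (chromosome 11, 59783897 to 59787645, minus strand) was at 2.22 TPM in replicate 1 (37 reads, interval 1.56 to 3.05) and 1.36 TPM in replicate 2 (8 reads, 0.588 to 2.68). Its intervals overlapped between the libraries, and Asz1 was 15.9 and 29.1 times as high, so the transcripts of these mitochondrial partners were far apart in both libraries.

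The Tudor genes covered the whole range of the set. Rnf17, also known as Tdrd4, encodes a RING finger protein with several Tudor domains that limits piRNA amplification in spermatocytes. Rnf17 (chromosome 14, 56402581 to 56525032, plus strand) was at 38.1 TPM in replicate 1 (2259 reads) and 37.0 TPM in replicate 2 (773 reads), a mean of 37.6 ± 0.728 TPM (SD, n = 2). It rested on more reads than any other member and differed little between the libraries, with a ratio of 0.973 (0.896 to 1.06).

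Tdrd5 and Tdrd7 encode proteins that join Tudor domains to LOTUS domains, which bind RNA and helicases. Tdrd5 is required for piRNA production and spermiogenesis, and Tdrd7 acts in the granules of spermatids and also in the lens. Tdrd5 (chromosome 1, 156255296 to 156303664, minus strand) was at 5.004 TPM in replicate 1 (330 reads) and 5.04 TPM in replicate 2 (117 reads). Tdrd7 (chromosome 4, 45965334 to 46034761, plus strand) was the lowest member at 0.744 TPM (28 reads) and 0.756 TPM (10 reads). Tdrd5 was 6.72 and 6.68 times as high as Tdrd7. The few reads of Tdrd7 gave its fold between the libraries a counting interval of 0.440 to 2.15. Whether this pair kept its ratio could therefore not be told. With the longest protein-coding transcript as length, the means were 6.85 TPM for Tdrd5 and 0.590 TPM for Tdrd7, a larger ratio. The exons of Tdrd5 share 176 bases with an antisense gene, 4930518J20Rik, and whether the counting used strand was not given in the sources used here. No other member with a row shares exonic bases with another annotated gene.

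Mael encodes an HMG-box protein needed for transposon silencing in the germ line, and its level differed most between the libraries. Mael (chromosome 1, 166201201 to 166238747, minus strand) was at 6.07 TPM in replicate 1 (100 reads, interval 4.94 to 7.38) and 17.1 TPM in replicate 2 (99 reads, 13.9 to 20.8). The mean of 11.6 ± 7.79 TPM (SD, n = 2) had the largest SD of the 9 genes, and the intervals did not overlap. Without replicate 2 Mael ranked below Piwil2 and Mov10l1, and without replicate 1 it ranked above both.

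The order of the means was Rnf17, Asz1, Gtsf1, Mael, Piwil2, Mov10l1, Tdrd5, Pld6 and Tdrd7. Rnf17 and Asz1 changed places between the libraries, and the intervals of Rnf17, Asz1 and Gtsf1 overlapped between neighbours in both. Rnf17 and Asz1, and likewise Asz1 and Gtsf1, differed on the means by less than the SD of Asz1. Both Rnf17 and Asz1 were above Gtsf1 in each library. Gtsf1 exceeded Mael by 3.02 times on the means, and each library of Gtsf1 was above each library of Mael. Mael, Piwil2 and Mov10l1 overlapped across libraries and could not be ordered. Tdrd5 was below Mov10l1 in both libraries, with intervals that overlapped in replicate 2, and Pld6 was below Tdrd5 with intervals that were apart in both. Pld6 and Tdrd7 had overlapping intervals in replicate 2. The upper part of the order depended on the gene length used: with the longest protein-coding transcript in place of all exonic bases, Asz1 came first at 45.0 TPM, followed by Gtsf1 at 43.8 and Rnf17 at 32.9 TPM, and Tdrd5 (6.85 TPM) passed Mov10l1 (5.36 TPM).

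The libraries were then compared for each gene. Of the 9 genes, 1 differed by more than 1 on the log2(TPM + 1) scale, which was Mael at 1.36 higher in replicate 2, while 10.2% of all genes passed that limit. The median absolute difference of the 9 genes was 0.11 on this scale, and that of all genes was 0.26. Replicate 2 was the higher library for 6 genes and the lower for 3, and of these 6, Gtsf1, Tdrd5 and Tdrd7 were higher by only 0.01. Over all genes it was higher for 7715 and lower for 9688.

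On the TPM scale Mael was 2.81 times as high in replicate 2 (exact counting interval 2.11 to 3.75) and Piwil2 1.73 times (1.45 to 2.07). Among the 7 members with at least 100 recovered reads in total, these were the 2 whose interval excluded 1. Of all genes with as many reads 48.5% did so, so such an interval is narrower than the spread between these libraries. The difference of Mael was also set beside 3868 genes with 0.5 to 2 times its 199 reads, a range chosen after its value was seen. In that range 5.35% of genes differed by more than 1 on the log2(TPM + 1) scale and 1.24% were higher by more than 1 in replicate 2, and the rise of Mael ranked 10 of 3868. Other values also moved between the libraries: the summed level of 4 macrophage markers was 19.4 TPM in replicate 1 and 9.53 in replicate 2, that of 5 endothelial markers 12.9 and 11 TPM, and that of 5 red cell markers 3537 and 3331 TPM. The 4 mesenchyme markers were each higher in replicate 2, with sums of 2.37 and 3.95 TPM, those of 4 endoderm markers were 1.27 and 2.20 TPM and those of 5 gonadal epithelium markers 3.91 and 3.99 TPM. Depth was lower in replicate 2. C1qb, Emcn, Afp and Nr5a1 were listed at 0 in replicate 2, Foxa2 in replicate 1 and Foxa1 in both. In replicate 1, C1qb had 12 reads (1.16 TPM), Emcn 109 (2.12 TPM), Afp 27 (0.843 TPM) and Nr5a1 2 (0.0496 TPM). In replicate 2, 3 reads of these genes would be 0.825, 0.166, 0.266 and 0.212 TPM. The part of depth and of these markers in the differences of Mael and Piwil2 was not tested.

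**Figure D2:**
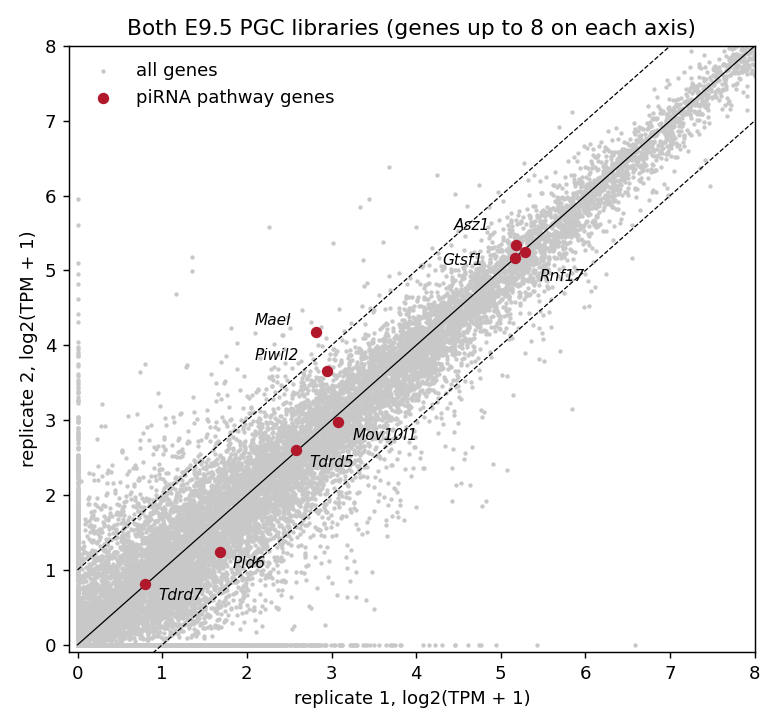
log2(TPM + 1) of every gene in replicate 1 (horizontal) and replicate 2 (vertical), up to 8 on both axes, with the 9 piRNA pathway genes in red; the solid line marks equal values and the dashed lines a difference of 1. Mael is the only red point beyond a dashed line, 1.36 above equality.

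**Figure D3:**
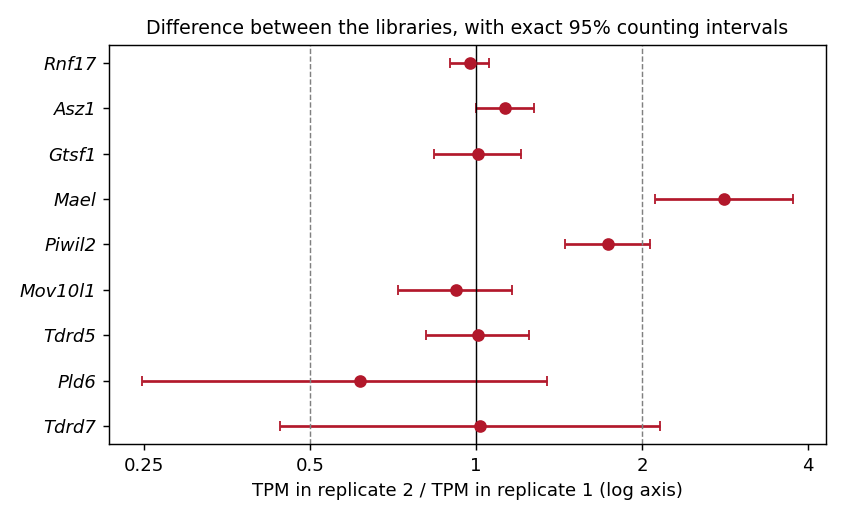
TPM in replicate 2 divided by TPM in replicate 1 for each gene (log axis), with exact 95% counting intervals; dashed lines mark 0.5 and 2. The intervals of Mael (2.11 to 3.75) and Piwil2 (1.45 to 2.07) lie above 1, and those of Pld6 and Tdrd7, which rest on few reads, are wide.

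The members were placed beside other listed genes, which include Argonaute and Tudor genes that act outside the piRNA pathway. Of 33 other listed genes (Piwi and Argonaute proteins, further piRNA factors and further Tudor genes), 27 had a row, and 22 of these reached 1 TPM in each library. Of all genes 60% did so. None of the 27 differed by more than 1 on the log2(TPM + 1) scale between libraries, where 10.2% of all genes did. This scale understates differences of low genes. Tdrd1, for example, was 3.28 times as high in replicate 2 (counting interval 1.46 to 7.49) but differed by 0.544 on this scale. Replicates 1 and 2 gave the 27 genes medians of 3.20 and 3.07. The 9 members lay below this median in replicate 1 (difference -0.25) and above it by 0.59 in replicate 2, a mean difference of 0.17 ± 0.599 (SD, n = 2) that was smaller than its SD.

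Among the further piRNA factors, 11 of 13 genes with a row passed the limit of 1 TPM, beside 60% of all genes. The highest were Gtsf1l, the cochaperone gene Fkbp6 at 96.1 ± 22.2 TPM, and Morc1, an ATPase gene of transposon silencing, at 56.7 ± 0.868 TPM (SD, n = 2). The lowest were Henmt1, Exd1 and Tex15. Henmt1, which encodes the methyltransferase that protects the end of mature piRNAs, had 0 reads in replicate 1 and 1 read in replicate 2, where 3 reads would be 0.118 and 0.335 TPM, and its exons share 392 bases with Gm9857 on the other strand. Exd1 was at 1.10 ± 0.258 TPM, and Tex15, which encodes a partner of nuclear PIWI silencing, was at 3.16 ± 0.511 TPM. Ddx4, which encodes the helicase Vasa of the germ granule, was at 21.3 and 15.8 TPM, above Piwil2 in both libraries by 3.16 and 1.35 times.

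Among the further Tudor genes, 8 of 9 with a row passed, beside the same 60% of all genes. Smndc1, a splicing factor gene, was highest at 105 ± 0.743 TPM, followed by the helicase gene Tdrd12 at 23.9 ± 8.20 TPM and the mitochondrial Tdrkh at 22.9 ± 3.04 TPM (SD, n = 2). Exons of Tdrkh share 2255 bases with Oaz3 on the opposite strand. The lowest was Tdrd1, which encodes the Tudor partner of MILI, with 13 reads in replicate 1 (0.251 TPM) and 15 in replicate 2 (0.824 TPM), and Smn1 and Snd1 followed at 6.11 ± 1.46 and 6.64 ± 1.15 TPM.

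The Argonaute genes, which serve microRNAs in all cells, were lower than most members. Ago1 was at 4.64 ± 1.25 TPM, Ago2, whose exons share 219 bases with Chrac1 on the other strand, at 2.64 ± 0.0589, Ago3 at 1.40 ± 0.244 and Ago4 at 0.0582 ± 0.0395 TPM with 2 reads in each library (SD, n = 2). Piwil2 was above each of the 4 in both libraries. The microRNA machinery had a median of 2.93 and 3.24 on the log2(TPM + 1) scale over 10 genes, and the members' median was higher by 0.02 and 0.42. This list ran from Prkra at 0.680 ± 0.0813 TPM, Tnrc6b at 2.33 ± 0.618 and Tnrc6c at 2.72 ± 0.712 TPM to Xpo5 at 13.2 ± 1.24, Drosha at 19.3 ± 0.879 and Ran at 1156 ± 77.2 TPM.

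**Figure D4:**
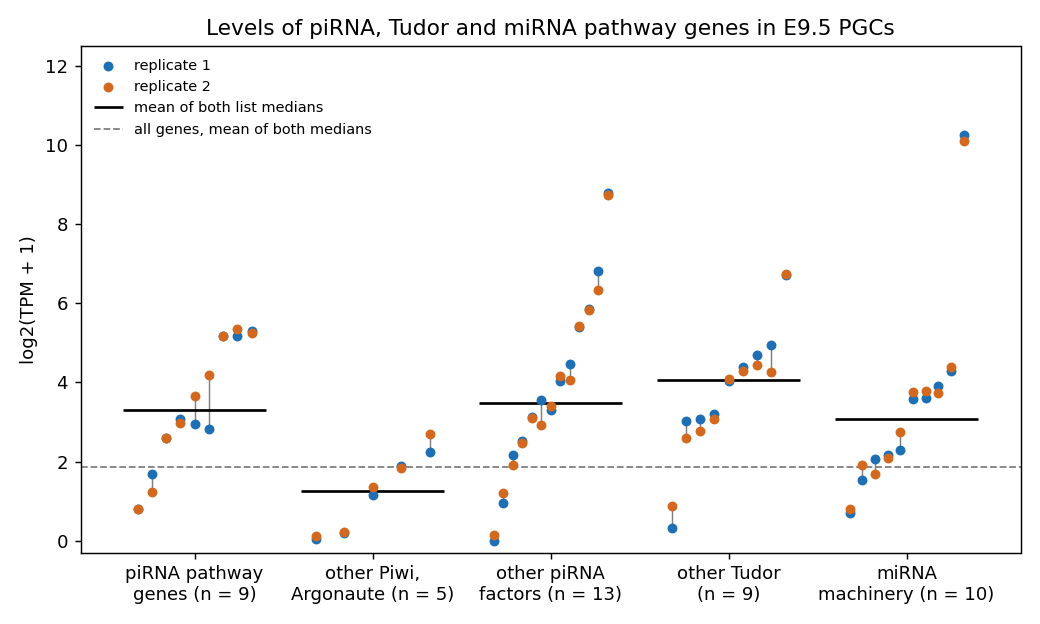
log2(TPM + 1) of each gene in replicate 1 (blue) and replicate 2 (orange), for the piRNA pathway genes and 4 related lists; thin lines join both libraries, black bars mark the mean of both list medians, and the dashed line marks that of all genes. The bar of the 9 piRNA pathway genes (3.31) lies between those of the other Tudor genes (4.06) and other piRNA factors (3.48) above it and those of the microRNA machinery (3.09), all genes (1.87) and other Piwi and Argonaute genes (1.26) below it.

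Promoter sequence was examined as a property that the choice of genes did not use. Germline genes often start in CpG-rich promoters that are methylated in somatic cells, and a complex that contains the E-box binding proteins MGA and MAX and the factor E2F6 is known to repress many of them in embryonic stem cells. RefSeq promoter windows on GRCm38.p6, from 250 bases before to 50 bases after a start, were matched by symbol for 8 of 10 genes, giving 11 windows, and Piwil2 and Rnf17 had no entry. The median observed-to-expected CpG ratio was 0.701 over these windows and 0.384 over all 32851 windows. A ratio of at least 0.6 was found in 8 of 11 windows and in 35.8% of all. Tdrd7 gave 3 of the 11 windows and Pld6 gave 2, so the windows are not independent.

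The E-box hexamer CACGTG, which reads the same on both strands, occurred in 4 of 11 windows, 1 each of Mael, Mov10l1, Pld6 and Tdrd9, and in 7.15% of all windows. By gene, it occurred in 4 of 8 members and in 8.09% of all genes. Among all windows with a CpG ratio of at least 0.6 it occurred in 11.3%. Of the 4 member windows with an E-box, those of Mael, Mov10l1 and Pld6 were among the 8 with such a ratio. That of Tdrd9, at 0.430, was not. The Tdrd9 window held the E-box hexamer at 2 positions, -165 and -95 from the start. The E2F-type hexamer TCCCGC, or GCGGGA on the other strand, occurred in 2 of 11 windows, those of Mael and Tdrd5, and in 19.98% of all. Among windows with a CpG ratio of at least 0.6 its share was 43.1%, and the windows of Mael and Tdrd5 were both among the 8 member windows of that kind. By gene, it occurred in 2 of 8 members and in 22.05% of all genes. No E-box match overlapped an E2F-type match. A match describes letters only, and factor binding was not measured. The 4 members with an E-box and, for contrast, Asz1, 1 of 3 genes without either hexamer, are shown 5′ to 3′ up to the first annotated exon, with both hexamers in capitals.

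Mael, chr1:166238748-166238994, minus strand: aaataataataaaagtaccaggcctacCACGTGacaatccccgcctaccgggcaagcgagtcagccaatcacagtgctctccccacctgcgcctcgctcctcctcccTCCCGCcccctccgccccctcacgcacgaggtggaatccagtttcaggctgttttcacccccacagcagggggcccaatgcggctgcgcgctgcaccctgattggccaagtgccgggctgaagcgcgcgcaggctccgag
Mov10l1, chr15:88982744-88982908, plus strand: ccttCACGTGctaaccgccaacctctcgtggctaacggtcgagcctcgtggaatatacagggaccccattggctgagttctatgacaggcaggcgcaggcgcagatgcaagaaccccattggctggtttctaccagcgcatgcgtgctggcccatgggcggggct
Pld6, chr11:59787658-59787907, minus strand: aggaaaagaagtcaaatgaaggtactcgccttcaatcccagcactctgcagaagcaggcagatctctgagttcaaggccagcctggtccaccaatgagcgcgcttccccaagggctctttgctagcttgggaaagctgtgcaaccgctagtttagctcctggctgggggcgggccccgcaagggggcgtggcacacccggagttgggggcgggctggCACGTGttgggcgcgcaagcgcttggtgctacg
Tdrd9, chr12:111971309-111971558, plus strand: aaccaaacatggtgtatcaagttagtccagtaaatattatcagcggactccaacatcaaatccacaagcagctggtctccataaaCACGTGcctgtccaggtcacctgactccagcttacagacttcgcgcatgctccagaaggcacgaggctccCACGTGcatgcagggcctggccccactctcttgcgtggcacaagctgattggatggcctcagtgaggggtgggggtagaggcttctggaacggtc
Asz1, chr6:18109062-18109311, minus strand: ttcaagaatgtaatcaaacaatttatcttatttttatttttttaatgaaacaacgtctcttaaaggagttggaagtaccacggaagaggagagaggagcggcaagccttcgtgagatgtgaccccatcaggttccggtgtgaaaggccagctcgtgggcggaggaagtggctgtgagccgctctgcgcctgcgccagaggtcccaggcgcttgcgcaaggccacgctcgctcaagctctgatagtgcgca

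Counted from the start, the E-box began at -223 and the printed E2F-type hexamer at -143 in Mael, and the E-box at -246 in Mov10l1 and at -33 in Pld6. Mael, Mov10l1 and Pld6, the E-box genes with a row, had means of 11.6, 7.17 and 1.79 TPM. Asz1, Gtsf1 and Tdrd7, whose windows held neither hexamer, had means of 37.4, 34.9 and 0.750 TPM. The levels of both kinds of gene overlapped, and Rnf17 and Piwil2 were unmatched.

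**Figure D5:**
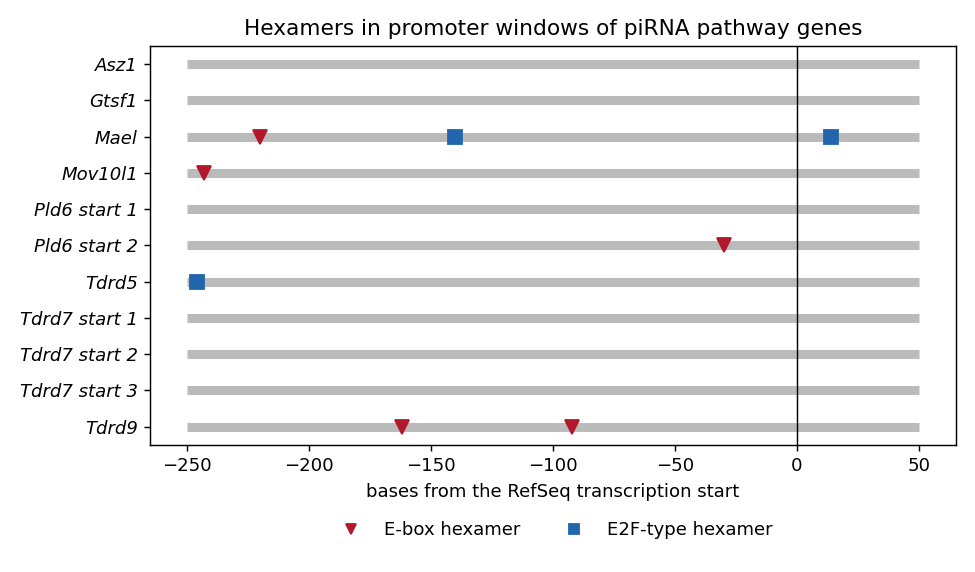
Positions of the E-box hexamer (red triangles) and the E2F-type hexamer (blue squares) in the 11 promoter windows of 8 piRNA pathway genes, in bases from the RefSeq start (0). E-boxes appear in 4 windows, from -246 to -33, and the windows of Asz1, Gtsf1 and Tdrd7 are empty.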

How the data were processed

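RNA-seq libraries of 2 E9.5 PGC samples were analysed, in 1 group taken from the sample titles. The authors mapped clean reads to mm10 with Hisat2, assigned them to genes with featureCounts and deposited TPM. The submitters' processing notes also name Bowtie2, RSEM, DESeq2 and R 3.4.2. Tool versions, annotation, strand and multi-mapping settings are not given in the sources used here. The methods describe Smart-seq2 amplification and the labels another library kit, so the chemistry is uncertain.

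Symbols were matched to GENCODE M21 (GRCm38, the assembly of mm10), with a single identifier for 18748 of 18877. TPM times exonic length gave whole multiples of 1 amount per library, taken as 1 read. Of values under 50 reads, 96.7% and 95.8% were within 0.02 of a whole number. On simulated data for 18748 genes, 100% of reads were recovered in both libraries. The simulation used the same exonic lengths to make and to recover its reads. It therefore checks the arithmetic only, and not whether these lengths are those behind the deposited TPM. Whether a unit is a read or a read pair was not settled. The reads carry no molecular identifiers, so they may repeat a molecule, and a count of 0 was read against a floor of 3 reads. Gene levels are TPM, and lists were summarised as medians of log2(TPM + 1), a scale that understates differences of low genes. Folds between libraries carry exact binomial intervals of the reads. No test was run, since there was 1 group.

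The members, gene lists and alternatives were chosen with earlier results of these data known. Named were all members, Piwi genes, Mov10, Gtsf1l, Gtsf2 and Ddx4, the 3 highest and 3 lowest genes of each other pathway list, and the highest and lowest genes of marker lists. For markers of other cells only those beside a result are given. The expression of genes without a row (Tdrd9, Piwil1, Gtsf2, Spocd1, Dnmt3l, Tdrd6 and Tdrd15 of these lists) was not analysed here. Alternatives were a pseudocount of 0.1, detection at 0.5 or 5 TPM, a rescaled replicate 2, TPM rebuilt over other gene sets or lengths, a filter at 1 TPM and leaving out each replicate. Python 3.11.15, numpy 2.4.6, pandas 2.3.3, scipy 1.17.1 and matplotlib 3.10.9 were used.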

Additional observations from a re-analysis of the deposited data

How the results depend on the processing

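The members' median, their count at 1 TPM (7 to 9 under other detection limits, scalings and lengths) and the count that differed between libraries kept their values within the spread, or within 1.5 times, under each alternative run. Leaving out 1 of 2 replicates moves a mean by less than its SD by construction, so it says nothing about stability. The median minus that of the other pathway, Argonaute and Tudor genes changed sign: it was -0.27 with the length of the longest protein-coding transcript, -0.014 with genes limited to a mean of 1 TPM or more, and -0.25 to 0.59 when either replicate was left out. Rebuilding TPM over protein-coding genes raised each member by 1.44 to 1.45 times, and transcript length changed members by 0.748 to 1.37 times. The first moved 8 of 9 member levels by more than their SD, and the second 7 of 9. No paired analysis was possible because both libraries belong to 1 group. Depth limits Pld6 and Tdrd7, with 8 and 10 reads in replicate 2.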

Other observations

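Listed pathway, Argonaute and Tudor genes outside the set were also compared between the libraries. Of 22 other pathway and Tudor genes with at least 100 recovered reads, 8 had an exact counting interval of the fold that excluded 1, of which 7 (31.8%) were lower in replicate 2 and 1 (4.55%) was higher. Over all genes with as many reads, 30.9% were lower and 17.6% were higher by this measure, so the share that was lower was that of all genes. Tdrd12, a Tudor helicase gene, was 0.610 times its replicate 1 level in replicate 2 (0.532 to 0.697), Gpat2, which encodes a mitochondrial acyltransferase of piRNA biogenesis, was 0.611 times (0.452 to 0.814), and Fkbp6 was 0.719 times (0.648 to 0.796). Ago1 was the higher one at 1.47 times (1.20 to 1.80). Gpat2 and Ago1 were singled out after their values were seen. Tdrd1, with 28 reads in all, was 3.28 times as high in replicate 2 (1.46 to 7.49).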
